A study of Mus musculus with 8 samples.

Results

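Pde10a encodes phosphodiesterase 10A, an enzyme that breaks down both cyclic AMP (cAMP) and cyclic GMP. It was taken as the row with the symbol Pde10a (ENSMUSG00000023868), 1 gene of the 31053 in the tables. The gene was selected on its lower level in melanoma cells of one host genotype, so that difference is described here with no test, and the other measures of the gene are described around it. Single-cell RNA sequencing (scRNA-seq) was performed on 8 B16F10 tumours labelled as large, each from 1 mouse. B16F10 is an established mouse melanoma line, which was injected under the skin. The hosts were 4 Atf4WT/WT and 4 Atf4Δ/Δ mice, labelled as 12 weeks old and of both sexes: 2 males and 2 females among the Atf4WT/WT hosts, and 3 males and 1 female among the Atf4Δ/Δ hosts. Both genotypes carried Rosa26::CreERT2, a tamoxifen-activated recombinase made in most cell types, and both received tamoxifen by oral gavage. In the Atf4Δ/Δ hosts it excised the loxP-flanked Atf4 fl/fl alleles, whereas the injected melanoma cells were the same line in every mouse. ATF4 is the transcription factor through which the integrated stress response acts, and its loss here is a property of the host cells and not of the injected melanoma cells.

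Phosphodiesterases end the cyclic nucleotide signal that adenylyl and guanylyl cyclases start. PDE10A is best known from the medium spiny neurons of the striatum, where its RNA is abundant. In melanocytes the best-known cAMP pathway runs from the receptor MC1R through adenylyl cyclase and protein kinase A to the factor CREB, which switches on the gene of the pigment cell regulator MITF together with early response genes such as Fos, the Nr4a family and Sik1. A phosphodiesterase opposes this pathway by removing cAMP.

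After filtering, 28170 cells were analysed, of which 23731 fell into 9 melanoma-like clusters. In these cells each of Mlana, Pmel, Dct and Tyrp1, which encode melanosome proteins, was found in at least 98.9% of cells. CAF-like (cancer-associated fibroblast), immune-like and endothelial-like clusters held 727, 897 and 38 cells. A further pair of clusters of low depth was left unnamed, one of 1833 cells led by Gm42418 and one of 944 cells led by Azgp1, Gm26532 and Malat1. Libraries held 37283598 to 74942137 UMIs (unique molecular identifiers, each standing for 1 captured RNA molecule), with 4231 to 8696 barcodes. Of 41725 distinct barcodes, 199 occurred in more than 1 library.

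Pde10a lies on chromosome 17 from 8525372 to 8986648 on the plus strand (GRCm38, GENCODE annotation), a span of 461 kb. The tables come from a 3′ assay, which counts the end of the transcript and cannot tell which of the gene's start sites was used. RefSeq places 2 starts in the reference table, at 8801745 and 8849985, both inside the GENCODE span and not at its start. The bases before each of these 2 starts that lie in no annotated exon are shown. The bases before the start of the GENCODE span were not searched. The first, chr17:8801495-8801692 on the plus strand, is rich in G and C (70.7%) and holds 13 CG pairs. The second, chr17:8849735-8849984, holds 56% G and C and 4 CG pairs. The bases before the first start that lie in an annotated exon are not printed, but the search for motifs took in the full 250 bases before each start. No base is in capitals because none of the 5 motifs searched was found there.

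Pde10a, first start: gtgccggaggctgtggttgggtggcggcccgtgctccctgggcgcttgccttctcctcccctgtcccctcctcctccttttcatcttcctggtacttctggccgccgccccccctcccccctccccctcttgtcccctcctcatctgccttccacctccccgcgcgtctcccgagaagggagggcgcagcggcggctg
Pde10a, second start: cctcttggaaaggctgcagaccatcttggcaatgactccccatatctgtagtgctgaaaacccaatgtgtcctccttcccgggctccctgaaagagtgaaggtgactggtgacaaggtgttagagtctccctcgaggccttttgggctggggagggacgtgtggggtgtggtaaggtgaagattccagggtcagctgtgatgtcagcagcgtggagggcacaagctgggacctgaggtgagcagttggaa

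The motifs were the cAMP response element TGACGTCA, its shorter form TGACG, the melanocyte M-box core CATGTG, the E-box CACGTG and the ATF4 element TGATGNAA, each searched on both strands. The shorter form lies within the full element and was counted separately. Over all 32851 promoter windows of the table, the share holding each motif was 1.55%, 17.8%, 12.3%, 6.02% and 3.45%, respectively. The absence of these letters from 250 bases says nothing about sites elsewhere in or around the gene.

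Among the named cell classes, mean Pde10a was highest in melanoma-like cells and lower in host cells. An unnamed cluster of low depth, described below, stood higher still. Levels are given as CPM, the Pde10a UMIs per 1000000 UMIs summed over the cells of a class in 1 tumour. In melanoma-like cells Pde10a was seen in 11574 of 23731 cells (48.8%, 95% Wilson interval 48.1 to 49.4%), with up to 14 UMIs in a cell at a median depth of 10301 UMIs. In CAF-like cells it was seen in 95 of 727 cells (13.1%, 10.8 to 15.7%) at a median of 4585 UMIs, and in immune-like cells in 15 of 897 cells (1.67%, 1.02 to 2.74%) at a median of 1326 UMIs. Intervals cover counting error only, and depths differ between the classes, so the shares are not directly comparable. As CPM, CAF-like cells stood at 44.0 ± 26.9 in Atf4WT/WT and 35.8 ± 9.32 in Atf4Δ/Δ tumours (SD, n = 4 each), with ranges of 23.3 to 81.9 and 24.5 to 45.02 that overlapped. Immune-like cells held no Pde10a UMI in 5 of 8 tumours and stood at 70.3 CPM in 1 tumour and at or below 16.3 CPM in the other 2. The 38 endothelial-like cells held 2 Pde10a UMIs in all.

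**Figure D1:**
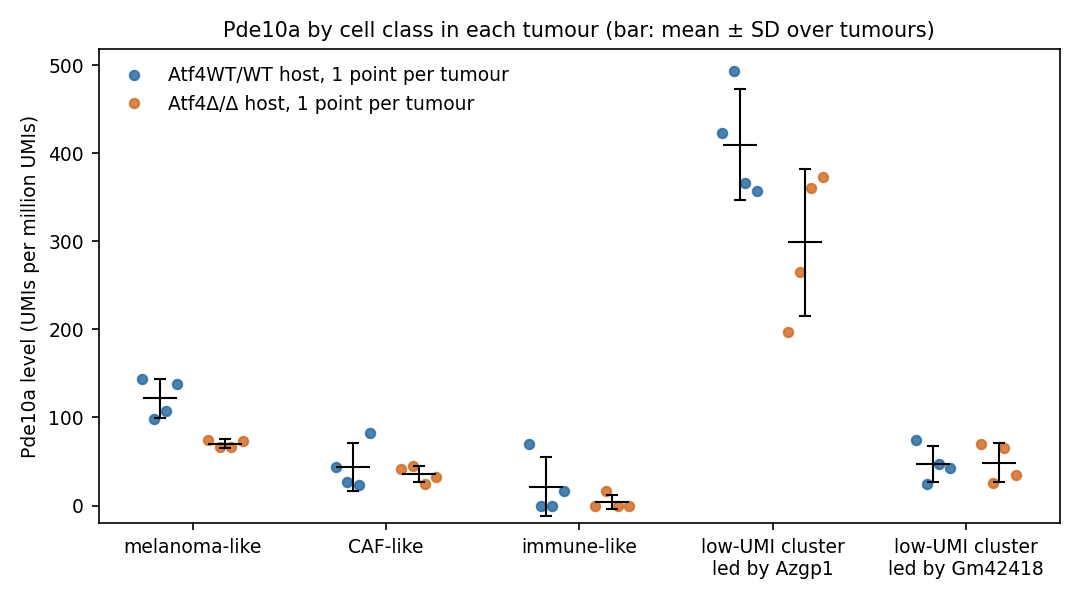
Pde10a level (CPM, linear axis) in 5 cell classes, 1 point per tumour, blue for Atf4WT/WT and orange for Atf4Δ/Δ hosts; the horizontal mark and bar are the mean ± SD over 4 tumours. The low-depth cluster led by Azgp1 lies highest and the immune-like cells lowest, and in the melanoma-like cells every Atf4Δ/Δ point lies below every Atf4WT/WT point.

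Both low-depth clusters carried melanoma markers but differed in Pde10a. The cluster led by Azgp1, Gm26532 and Malat1, a nuclear RNA, had a median of 1558 UMIs per cell, 0.479% mitochondrial counts and Pde10a at 409.8 ± 62.5 CPM in Atf4WT/WT and 299 ± 83.7 CPM in Atf4Δ/Δ tumours (SD, n = 4 each). These levels were above those of the melanoma-like cells in every tumour, while the ranges of the genotypes, 358 to 493 and 197 to 373 CPM, overlapped. The cluster led by Gm42418 had a median of 1215 UMIs, 2.46% mitochondrial counts and Pde10a at 47.4 ± 20.7 and 48.7 ± 21.99 CPM, from 151 UMIs in all.

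The border between these clusters was not stable. A second run of the same clustering with other linear algebra routines, added after the data were seen, put 1989 cells at 251 ± 69.9 and 154 ± 35.5 CPM into the cluster with Gm26532, Azgp1 and Malat1, and 801 cells with 12 Pde10a UMIs into the one led by AY036118 and Gm42418. Taken as one, the low-depth cells stood at 182 ± 83.6 and 112 ± 26.3 CPM in the first run and 183 ± 81.2 and 111 ± 27.2 CPM in the second (SD, n = 4 each), and the genotypes overlapped in both. Only 65 of 28411 cells changed class between the runs, and the melanoma-like class moved by less than 1 CPM in either genotype. Both low-depth clusters were left out of that class.

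In droplet data free RNA gives UMIs in cells that do not express a gene, so Pde10a in host cells was read against the melanoma markers found in the same cells. Free RNA from the melanoma-like cells alone would keep the ratio of Pde10a to the markers in those cells. The low-depth clusters, which also carried melanoma markers, held Pde10a at other levels, and free RNA with another ratio was not tested. Per 1000 UMIs of 10 melanoma markers, host cells of the Atf4WT/WT tumours held 9.53, 7.87, 4.93 and 15.2 Pde10a UMIs against 9.28, 7.01, 6.78 and 9.25 in the melanoma-like cells of each tumour. In the Atf4Δ/Δ tumours host cells held 9.76, 8.21, 14.1 and 10.1 against 5.21, 3.93, 4.81 and 4.98. Host cells were thus above melanoma-like cells in 7 of 8 tumours, and they held 182 Pde10a UMIs where 118 would match the ratio in melanoma-like cells. The mean log2 ratio was 0.62 ± 0.66 (SD, n = 8; exact two-sided sign-flip permutation test, p = 0.0391). By tumour it was 0.04, 0.17, -0.46 and 0.71 in Atf4WT/WT and 0.91, 1.06, 1.55 and 1.02 in Atf4Δ/Δ tumours. The divisor, Pde10a in melanoma-like cells, holds the genotype difference on which the gene was chosen. The test, here and in CAF-like cells alone, is therefore not independent of that choice. In CAF-like cells alone the log2 ratio was 1.13 (152 UMIs against 73.9, 7 of 8 tumours, exact p = 0.0156). In immune-like cells alone the mean was -0.28, given with no test. It covers only the 3 tumours with a Pde10a UMI in these cells, and in 2 of them the ratio was above 0. All 897 immune-like cells held 28 Pde10a UMIs against 40.7. The difference between the 2 cell types was not tested. Leaving out any one of Atf4WT/WT 4 and the 4 Atf4Δ/Δ tumours gave exact p = 0.0781. Doublets were not called, and their part in the Pde10a of host cells was not tested.

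In melanoma-like cells Pde10a was lower in every Atf4Δ/Δ tumour than in every Atf4WT/WT tumour. After trimmed-mean (TMM) scaling the 4 Atf4WT/WT tumours stood at 142, 101, 111 and 139 CPM, from 7021, 3014, 2600 and 3358 Pde10a UMIs. The 4 Atf4Δ/Δ tumours stood at 76.6, 65.3, 63.4 and 72.4 CPM, from 2053, 1972, 2630 and 2366 UMIs. The lowest Atf4WT/WT tumour was therefore above the highest Atf4Δ/Δ tumour, and the spread was wider among the Atf4WT/WT tumours. Means were 123 ± 20.5 and 69.4 ± 6.15 CPM (SD, n = 4 each), a log2 fold change of -0.83 (SE 0.11, edgeR), or 1.78-fold lower in Atf4Δ/Δ. This is the contrast by which the gene was chosen. Of 12555 genes tested with edgeR's quasi-likelihood test, 4 (0.0319%) passed an adjusted p of 0.05. Pde10a is counted in the 4, which is no test of it because it was chosen on this contrast, and in several alternatives it did not pass. The other 3, all higher in Atf4Δ/Δ tumours, were Gm29084 (log2 1.78, SE 0.25), S100a6, a calcium-binding protein (0.59, SE 0.06), and Plat, the tissue plasminogen activator (1.10, SE 0.15). Gm29084 and Plat were low, at 0.367 and 1.70 CPM in Atf4WT/WT and 1.29 and 3.67 CPM in Atf4Δ/Δ tumours. S100a6 stood at 25.9 and 38.9 CPM. For scale, 364 genes (2.9%) had every Atf4Δ/Δ tumour below every Atf4WT/WT tumour, and 439 genes (3.5%) had every Atf4Δ/Δ tumour above. By host sex, the Pde10a log2 difference was -0.91 between 2 and 3 male hosts and -0.63 between 2 and 1 female hosts.

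The same order of the genotypes held when fewer UMIs per cell were compared. Each melanoma-like cell was thinned to 5000 UMIs, which left out 900 shallower cells of the Atf4WT/WT and 565 of the Atf4Δ/Δ tumours. The share of cells with a Pde10a UMI was then 45.4%, 32.6%, 36.0% and 41.3% in the Atf4WT/WT tumours and 26.1%, 24.9%, 25.3% and 26.5% in the Atf4Δ/Δ tumours. The genotypes did not overlap, and the Atf4Δ/Δ tumours lay within a narrow band. The ratio of variance to mean of Pde10a UMIs over thinned cells was 1.33 to 1.501 in the 8 tumours, where a ratio of 1 is that of random sampling of a single level. For the melanoma markers the median ratio ran from 1.07 for Gpr143 to 5.84 for Pmel. A share of cells with a UMI falls both when fewer cells hold the transcript and when each cell holds less of it, and these were not told apart.

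Pde10a was detected in all 9 melanoma-like clusters. The clustering left Pde10a out of the variable genes, but clusters were made from these same cells, so their levels are a description. Of the 9, 8 are described one by one. Over 8 tumours the highest mean among these 8 clusters was 121 ± 34.7 CPM (SD) in the 3352 cells led by Kcnj13 and Mgll. The lowest was 82.4 ± 29.4 CPM in the 3491 cells led by the mitotic genes Ccnb2, Cdkn3 and Cenpa, then 84.8 ± 31.4 CPM in the 3547 cells led by Fgf21. The SDs hold the genotype difference, and within each tumour the order was tighter. Relative to its own tumour's melanoma-like cells, the Kcnj13 cluster was higher by 0.35 ± 0.12 on the log2 scale (SD, n = 8), in 8 of 8 tumours. The Ccnb2 cluster was lower in 8 of 8 tumours (-0.23 ± 0.14), and the clusters led by Fgf21 (-0.20 ± 0.17) and Fam83d (-0.14 ± 0.14) were lower in 7 of 8 tumours. The clusters led by Nppb, Ifit3, Cdc6 and Espn had mean differences from -0.02 to 0.07, each smaller than its SD over tumours. In the second run of the clustering the borders between these clusters moved, but the cells led by Kcnj13 again stood high (145 ± 21.3 CPM in Atf4WT/WT tumours) and those led by Cdc20, Cenpa and Ccnb2 low (95.3 ± 26.8 CPM).

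**Figure D2:**
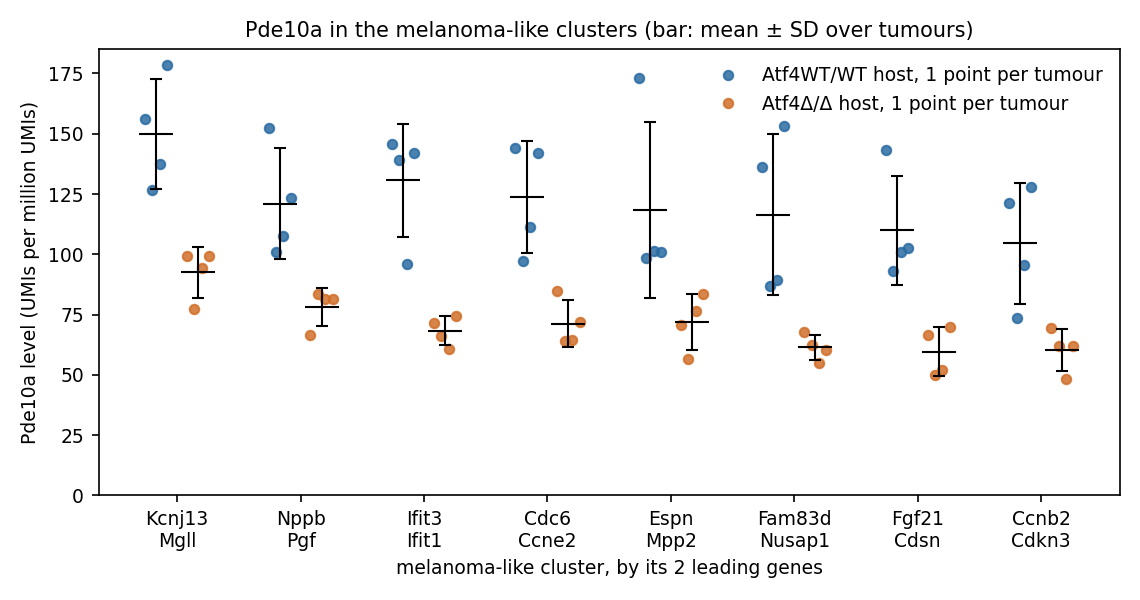
Pde10a level (CPM, linear axis from 0) in 8 of the 9 melanoma-like clusters, each named by its 2 leading genes and ordered by mean level, 1 point per tumour; the mark and bar are the mean ± SD over 4 tumours. The Atf4Δ/Δ points lie below all Atf4WT/WT points in each of the 8 clusters drawn.

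The genotype difference of Pde10a had the same direction in each of the 9 clusters, with log2 values from -0.92 in the interferon-response cluster led by Ifit3 to -0.60 and a median of -0.77 over the 9. In the 8 clusters described the tumours of the 2 genotypes did not overlap, in the other one they did, and in the second run of the clustering the counts were the same, 9 lower and 8 with no overlap. The clusters split the same cells of the same 8 tumours on whose difference the gene was chosen. These counts are therefore a description and not separate evidence of the difference. Cells above the mitochondrial limit were left out of the clustering. Those of them with at least 3 melanoma markers and no UMI of a host cell marker stood at 125 ± 19.2 and 81.4 ± 9.15 CPM.

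Pde10a was next compared between states of the melanoma-like cells within each tumour, in 6 comparisons tested with the exact two-sided sign-flip permutation test and Benjamini-Hochberg adjustment over the 6. The smallest p that 8 tumours allow is 0.0078. None passed after adjustment. Cells scored as G2/M held less Pde10a than cells scored as G1 in 7 of 8 tumours. In Atf4WT/WT tumours G2/M and G1 cells stood at 136 and 149.9, 80.2 and 110.0, 88.7 and 116, and 146 and 133 CPM. In Atf4Δ/Δ tumours they stood at 69.4 and 74.2, 60.2 and 71.6, 52.0 and 77.6, and 58.6 and 85.6 CPM. The mean log2 ratio was -0.29 ± 0.25 (SD, n = 8; exact p = 0.0234, adjusted p = 0.141), and with cells thinned to 5000 UMIs it was -0.37 with an adjusted p of 0.0469 by the same exact test. S against G1 gave -0.10 ± 0.14 (2 of 8 tumours higher; exact test, adjusted p = 0.141).

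The other 4 comparisons put the cells of a tumour into 4 equal ranges by the share of UMIs in a list of genes and set the uppermost range against the lowermost. The hypoxia list gave a log2 ratio of 0.15 ± 0.23 (5 of 8 tumours higher), and the integrated stress response list gave 0.20 ± 0.21 (6 of 8 tumours higher), each with an adjusted p of 0.141 in the exact test, and in thinned cells the stress ratio was 0.16 with an adjusted p of 0.0469 by the same test. The interferon list gave -0.07 ± 0.20 (3 of 8 higher; exact test, adjusted p = 0.367) and the pigment list 0.14 ± 0.25 (4 of 8 higher; exact test, adjusted p = 0.225). These ranges are not cell types, with between 2706 and 8522 of the 23731 cells within 10% of a limit's value. The 6 ratios were also set between the host genotypes in an exact permutation of the labels. None of these differences passed, and the smallest adjusted p was 0.514 (interferon, Atf4Δ/Δ minus Atf4WT/WT -0.24).

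**Figure D3:**
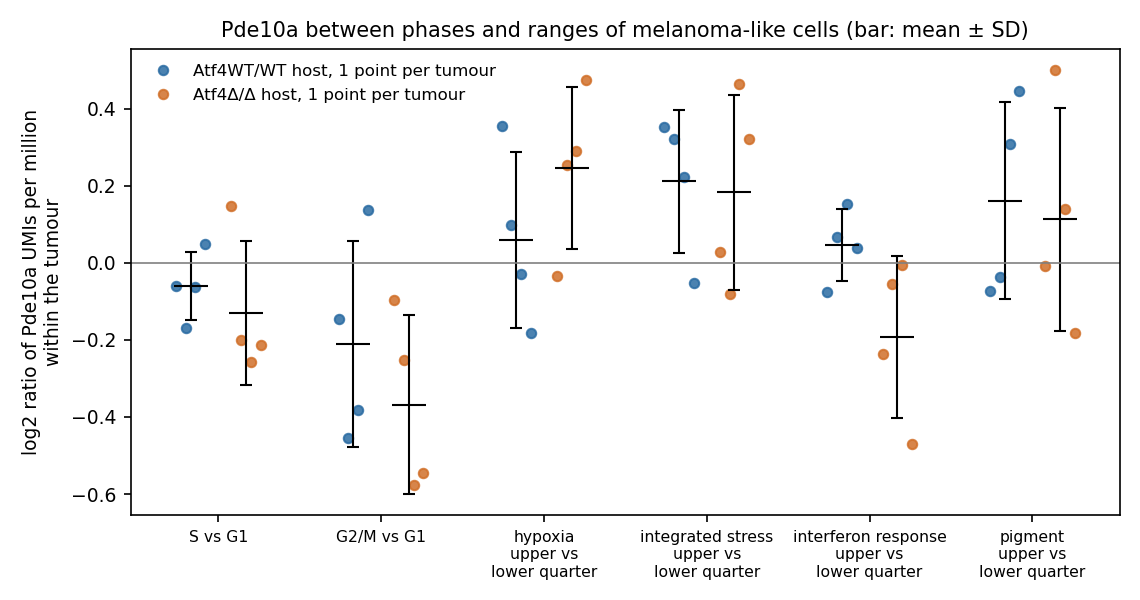
Log2 ratio of Pde10a CPM between 2 sets of melanoma-like cells of the same tumour, 1 point per tumour, for 2 cell cycle phases against G1 and for the uppermost against the lowermost of 4 equal ranges of cells by 4 gene lists; the mark and bar are the mean ± SD over 4 tumours and the grey line is no difference. Points lie on both sides of 0 in each comparison, and 7 of 8 lie below 0 for G2/M against G1.

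Melanoma-like cells with at least 1 Pde10a UMI were compared with cells of the same tumour without one, and most members of a list of cAMP-responsive genes were higher in the cells with Pde10a. The 2 sets were drawn to equal numbers within each of 10 equal ranges of UMI count of the tumour, 841 to 1760 cells a side, so that depth was alike (mean of the tumours' medians, 10554.4 with against 10549.7 UMIs without). With Pde10a itself left out, 854 of 11504 genes (7.42%) were higher and 693 (6.02%) lower in cells with Pde10a (edgeR, tumour as a block, adjusted p of 0.05). Of the list of CREB factors and cAMP-responsive genes, 12 of 17 members were higher and none lower, each of the 12 in 8 of 8 tumours. The median log2 difference over the list was 0.44, and over all genes tested it was 0.00.

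The largest difference in the list was that of Nr4a2, an orphan nuclear receptor induced early after a cAMP signal. In cells without and with Pde10a it stood at 20.04 and 63.3, 12.3 and 43.8, 22.3 and 58.9, and 29.1 and 97.5 CPM in the Atf4WT/WT tumours. In the Atf4Δ/Δ tumours the pairs were 16.9 and 50.02, 15.7 and 53.3, 9.38 and 28.6, and 13.6 and 34.1 CPM. Every tumour showed the rise, and the log2 difference was 1.62 (SE 0.04; edgeR, adjusted p = 1.74e-30). By tumour it ran from 1.27 to 1.75, a spread that this SE does not measure, since edgeR pools spread over genes. Sik1, a kinase that restrains the CREB coactivators, went from 13.7 ± 4.03 to 35.8 ± 9.98 CPM (SD, n = 8), a log2 difference of 1.36 (SE 0.05; edgeR, adjusted p = 3.4e-25). The related receptors Nr4a1 and Nr4a3 were higher by 0.76 and 0.65 on the log2 scale. Ppargc1a, a coactivator of mitochondrial genes, was higher by 0.67 and Mitf by 0.46, from 280.1 ± 39.8 to 388 ± 42.1 CPM. Junb (0.66), Dusp1 (0.55), Per1 (0.44), Crem (0.35), Fos (0.28) and Fosb (0.26) made up the 12.

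The 5 members that did not pass were Creb1, Atf1 and the coactivators Crtc1, Crtc2 and Crtc3, the factors that carry the signal, with log2 differences from -0.05 to 0.11. The count was 12 of 17 in each alternative tried, including cells with at least 2 Pde10a UMIs and each tumour left out in turn, except that it was 13 without Atf4WT/WT 1. Cells matched on cluster as well as on UMIs, a setting added after the data were seen, also gave 12 of 17, with 596 of 11446 genes (5.21%) higher. Fos, Fosb, Junb, Dusp1 and Nr4a1, all higher here, are also early response genes that tissue dissociation can induce. Of 7 other stress genes, chosen after their values were seen, 1 was higher (Jun, 0.18) and none lower, with a median of -0.02. Over all genes tested 7.42% were higher. The part of dissociation in the result was not tested.

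**Figure D4:**
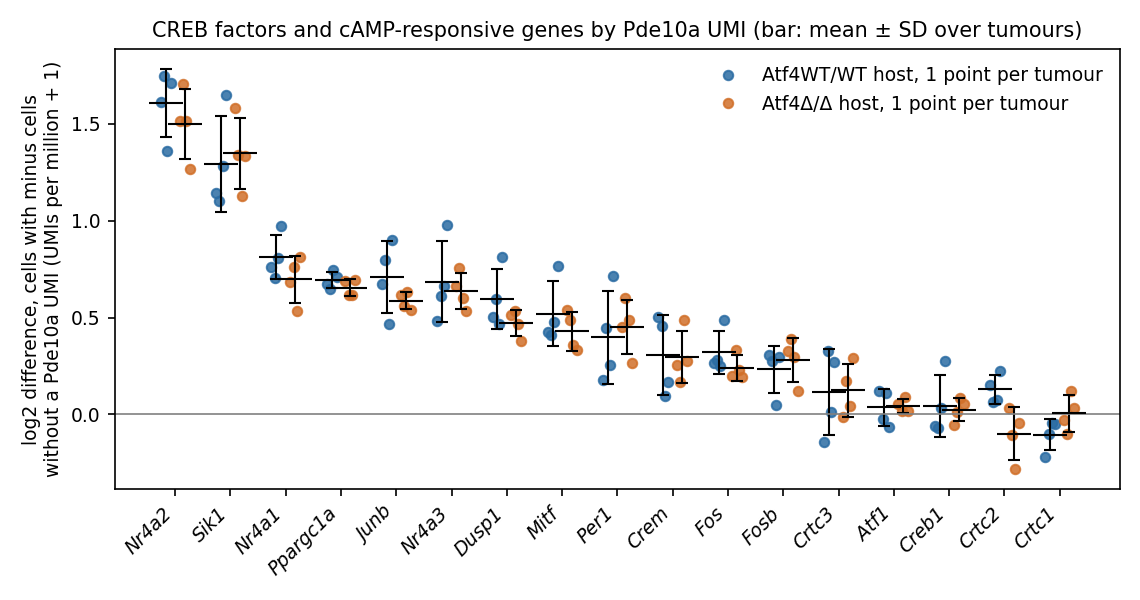
Log2 difference (CPM + 1) between melanoma-like cells with and without a Pde10a UMI, matched on UMIs per cell, for 17 CREB factors and cAMP-responsive genes, 1 point per tumour; the mark and bar are the mean ± SD over 4 tumours and the grey line is no difference. From Nr4a2 to Fosb all 8 points lie above 0, and the 5 factors and coactivators at the right lie around it.

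The promoters of these genes show the letters that were not found before the starts of Pde10a. Of the 12 genes, 10 have a window in the RefSeq table, and all 10 hold TGACG within 250 bases before a start, which 19.8% of the 27025 genes in the table do. These genes were listed as known targets of cAMP signalling, so this is a property of the list. The full element TGACGTCA was found for 2 of the 10 (1.77% of all genes). The M-box core was found for 2 (13.8%), the E-box for 2 (6.86%) and the ATF4 element for none (3.91%). The TGACG site nearest the start is shown for the 3 genes with the largest difference that have a window. Its letters are in capitals as it reads on the gene's strand (CGTCA where it lies on the other strand). The 3 stretches shown are at chr2:57124100-57124124 (minus strand), chr15:101266796-101266820 (plus) and chr5:51567760-51567784 (minus), GRCm38.

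Nr4a2: acggggccgcTGACGcgcttggccg
Nr4a1: cctctccatgCGTCAcggagcgctt
Ppargc1a: tgccctcccaCGTCActgagctcca

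Fewer members of the other lists of the pathway passed between cells with and without Pde10a. For scale, 7.42% of all genes tested were higher and 6.02% lower. Of the other phosphodiesterases 3 of 10 tested were higher and none lower: Pde4d (log2 0.48, from 29.6 to 41.9 CPM), Pde4b (0.36) and Pde11a (0.16). Of the adenylyl cyclases, which make cAMP, Adcy7 (0.46) and Adcy3 (0.20) of 4 tested were higher. Of 5 receptors and G proteins Mc1r, the melanocortin receptor, was higher by 0.13 (SE 0.03) and Gnas by 0.03 (SE 0.01). Among the 16 tested effectors none was higher and 4 were lower. Among them Prkar2b, a regulatory subunit of protein kinase A (-0.25), and Pkia, an inhibitor of that kinase (-0.21), were lower in 8 of 8 tumours, and the related inhibitor Pkig (-0.11) in 7. Of 14 melanocyte pigment genes 5 were higher (Mitf, Sox10, Tyr, Dct and Slc45a2), with a list median of 0.03.

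Among all genes, the 10 with the largest positive difference that held in 8 of 8 tumours were Nr4a2, Sik1, Rgs2, Usp2, Cfap46, Smtnl1, Pak3, Nr4a1, Frat2 and Klf4. Rgs2, a regulator of G protein signalling, rose from 6.87 ± 2.03 to 16.03 ± 4.79 CPM (log2 1.16, SE 0.08) and Usp2, a deubiquitinase, from 12.4 ± 3.74 to 24.4 ± 7.37 CPM (log2 0.96, SE 0.05; SD, n = 8). Klf4, a zinc finger factor, was higher by 0.75. The 5 largest negative differences belonged to low genes, Atcayos, Stab1, Gm26785, Rbm44 and Milr1, which went from 1.31 to 3.01 CPM without to 0.531 to 1.43 CPM with Pde10a. Of the 20 tested integrated stress response genes 9 were higher and 4 lower. Among them, named after their values were seen, Ddit3 (-0.32) and Ddit4 (-0.26) were lower in 8 of 8 tumours and Fgf21 (-0.73) in 6, and Asns, Slc3a2, Slc7a5 and Mthfd2 were higher by 0.11 to 0.17. The hypoxia list had 11 of 19 members higher, with a median of 0.07. Both lists stand beside 7.42% of all genes higher and 6.02% lower. The matched cells also differed in phase: 52.6% of cells with Pde10a scored as G1 against 46.7% without, and 21.4% against 28.3% as G2/M, in the same direction in 8 of 8 tumours. Their mitochondrial share was alike (5.39% and 5.45%). The part of phase in these differences was not tested.

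In the fit over all 12555 genes between host genotypes none of the 17 CREB-list members passed the adjusted threshold in edgeR, the smallest adjusted p being 0.227 for Sik1. At an unadjusted p under 0.05, 6 were lower and 1 higher in Atf4Δ/Δ tumours, beside 681 lower and 740 higher over all genes. The lower 6 were Nr4a2 (-0.76, SE 0.24), Sik1 (-0.68, SE 0.18), Nr4a3 (-0.50), Nr4a1 (-0.43), Crem (-0.28) and Mitf (-0.23), and the higher one was Crtc2 (0.27). Of the 17, Nr4a3 and Crem had every Atf4Δ/Δ tumour below every Atf4WT/WT tumour and Crtc2 had every one above. Over all genes tested these shares were 2.9% and 3.5%. Mitf stood at 360.4 ± 47.0 and 308 ± 11.4 CPM and Nr4a2 at 45.5 ± 16.3 and 26.9 ± 6.90 CPM (SD, n = 4 each).

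The level of Pde10a was then read at like levels of the CREB list. Cells thinned to 5000 UMIs were put into 4 bins by their UMIs in the 17 genes (0 to 4, 5 to 6, 7 to 9 and 10 to 45), a setting added after the data were seen and given with no test. Pde10a climbed over the bins in both genotypes, from 67.2 ± 9.98 to 103 ± 20.5, 129 ± 22.7 and 190.4 ± 34.5 CPM in Atf4WT/WT and from 44.7 ± 5.72 to 54.0 ± 6.28, 83.0 ± 4.27 and 117 ± 14.8 CPM in Atf4Δ/Δ tumours (SD, n = 4 each). Within each bin the Atf4Δ/Δ tumours lay below all Atf4WT/WT tumours, by log2 values of -0.59, -0.92, -0.62 and -0.69. The bins split the same cells, so this order is not independent of the choice of the gene. The share of cells in the top bin was 27.0 ± 4.27% in Atf4WT/WT and 20.6 ± 5.66% in Atf4Δ/Δ tumours, and those ranges overlapped.

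Pde10a was the phosphodiesterase with the most UMIs in the melanoma-like cells. The 3′ assay counts 1 end per captured molecule, so levels were not divided by gene length, and capture can still differ between genes. Pde10a averaged 96.3 ± 32.0 CPM over 8 tumours, ahead of Pde6d (40.3 ± 3.35), Pde4d (35.8 ± 4.37), Pde11a (31.5 ± 3.35) and Pde7a (24.8 ± 1.64), of which Pde4d, Pde7a and the lower-ranked Pde4b and Pde8a act on cAMP alone. It made up 43.5%, 35.2%, 37.7% and 45.7% of the CPM of the 13 phosphodiesterase genes tested in the Atf4WT/WT tumours and 29.8%, 24.0%, 26.7% and 28.7% in the Atf4Δ/Δ tumours. The list goes by Pde symbol, Pde6d included, so these are shares of transcripts and not of enzyme activity. Of the 12 others tested, out of 23 in the list, none passed between genotypes in edgeR. Their log2 fold changes ran from -0.48 for Pde7b to 1.41 for Pde1b, a gene under 1 CPM. At an unadjusted p under 0.05, Pde8a (0.39, from 10.96 ± 2.36 to 14.4 ± 1.70 CPM) and Pde1b were higher in Atf4Δ/Δ tumours. None of the 12 was lower, beside 740 higher and 681 lower of all 12555 genes. The other 11 of the 23 had at most 43 UMIs in all 8 tumours together and were not tested.

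**Figure D5:**
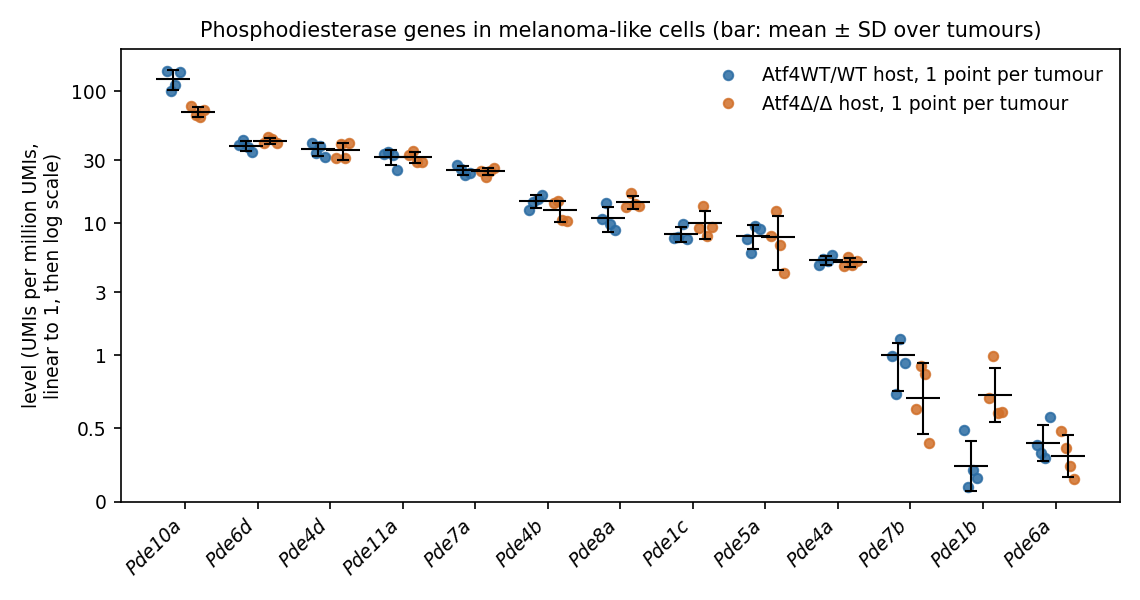
Level of the 13 tested phosphodiesterase genes in melanoma-like cells (CPM after TMM scaling; axis linear up to 1 and logarithmic above), 1 point per tumour, ordered by mean level; the mark and bar are the mean ± SD over 4 tumours. Pde10a is the highest, and only for Pde10a and Pde1b do the points of the genotypes not overlap.

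In the rest of the pathway no gene passed the adjusted threshold of edgeR between genotypes. Of 6 adenylyl cyclases tested, Adcy7 (22.6 ± 2.01 and 24.7 ± 3.67 CPM), Adcy3 (18.6 ± 1.67 and 16.7 ± 1.89 CPM) and Adcy6 (5.69 ± 0.879 and 4.93 ± 0.600 CPM) were the highest. Of the 3 guanylyl cyclase genes tested, the natriuretic peptide receptors Npr2 and Npr1 stood at 5.84 ± 0.747 and 2.19 ± 0.356 CPM in Atf4WT/WT tumours. Among 17 effectors the protein kinase A subunits Prkar1a (248 ± 9.83 and 253 ± 10.4 CPM) and Prkaca (40.7 ± 2.00 and 44.5 ± 2.58 CPM) and the exchange factor Rapgef4 (52.6 ± 5.77 and 53.4 ± 3.70 CPM) were the most counted. Hcn2 was the 1 effector of 17 with every Atf4Δ/Δ tumour below every Atf4WT/WT tumour (log2 -0.68, SE 0.17, edgeR adjusted p = 0.216). Over all genes tested 2.9% had that order. Upstream, Gnas, the stimulatory G protein, stood at 1503 ± 100.3 and 1463 ± 52.9 CPM and Mc1r at 72.1 ± 7.96 and 76.8 ± 8.29 CPM (SD, n = 4 each). Of 14 pigment genes 2 were lower at an unadjusted p under 0.05 (edgeR), Dct (-0.24, SE 0.09) and Mitf (-0.23, SE 0.09). The 1 higher gene was Trpm1 (0.23, SE 0.09), and the list median was 0.04. Over all 12555 genes 681 were lower and 740 higher at that limit.

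The 20 tested protein-coding genes nearest to Pde10a on chromosome 17 were taken, 10 on each side by start coordinate. None of the 20 passed between genotypes in edgeR, and the median log2 fold change was 0.03. None had every Atf4Δ/Δ tumour below every Atf4WT/WT tumour, and 3 had every one above (Rsph3a, Tagap1 and Gm17087), beside the 2.9% and 3.5% of all genes. At an unadjusted p under 0.05, these 3 and Rsph3b were higher in Atf4Δ/Δ tumours and none was lower, beside 740 higher and 681 lower of 12555 genes. The nearest tested genes at lower coordinates were Prr18 (0.28, SE 0.25), Sft2d1 (0.12, SE 0.09) and Mpc1, a mitochondrial pyruvate carrier (0.03, SE 0.06), between 181 and 228 kb away. On the other side 1700010I14Rik began 1.69 kb after the end of Pde10a on the same strand and had a log2 fold change of 0.04 (SE 0.15) at 3.33 ± 0.565 and 3.44 ± 0.328 CPM. Qk, an RNA-binding protein, 1216 kb away, had 0.06 (SE 0.07). Gm17087 lies inside Pde10a on the opposite strand at under 1 CPM and had 0.77 (SE 0.21; edgeR, adjusted p = 0.241), and reads from an overlapping antisense gene may not be fully separated.

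The 5 genes whose tumour-to-tumour pattern was nearest to that of Pde10a, by the root-mean-square difference of centred log2 CPM over 8 tumours, were Gm45184 (0.17), Hlx (0.20), Rgs2 (0.20), Mfng (0.20) and Rps6ka5 (0.21). The median over 12554 genes was 0.46. The 5 lie on chromosomes 7, 1, 1, 15 and 12. Their log2 fold changes between genotypes, from -0.96 to -0.56, are a description, since the pattern they were matched to holds the genotype difference of Pde10a. Rgs2, at 13.8 ± 3.33 and 9.46 ± 1.82 CPM, was the 1 that was also among the 10 genes highest in cells with Pde10a.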

How the data were processed

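Single-cell suspensions of 8 tumours were sequenced with a 10x 3′ assay, and the authors deposited 1 table of UMI counts per tumour (Cell Ranger 3.1.0, GRCm38 and Seurat 3.2.1 per the submitters' notes). The deposited counts are not normalized. Of 41925 barcodes, the 28411 that held 200 to 5000 genes, with mitochondrial genes giving no more than 7.5% of their UMIs, were integrated and clustered with Seurat 5.3.0 (2000 variable genes without Pde10a, 20 components, resolution 0.6), and 1 cluster of 241 cells, 231 of them from Atf4WT/WT 4, was removed. Cluster borders moved with the rounding of the linear algebra routines, so the clustering was run with 1 fixed set of them and compared with a run under another. Doublets were not called. Clusters were named from marker lists. UMIs were summed per tumour and class and tested with edgeR 4.0.16 (quasi-likelihood, TMM scaling, Benjamini-Hochberg adjusted p of 0.05) in R 4.3.3, with DESeq2 1.42.0 as an alternative. p-values between genotypes rest on the spread between tumours. Those of comparisons within tumours, where edgeR had tumour as a block, rest on the spread of the within-tumour differences. In both kinds of edgeR fit the spread of a gene is drawn towards that of other genes. An edgeR p-value or SE is therefore not set by the tumours' values of that gene alone. Scripts were tested on simulated data.

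Pde10a, the gene lists and the tests were chosen with earlier results of these data known. Named genes were Pde10a, list members past the threshold and the 3 most counted of each list, the 5 genes nearest to Pde10a in pattern, the 10 highest and 5 lowest genes in cells with Pde10a that moved alike in 8 of 8 tumours, the 3 tested neighbours on each side, and all genes past the genotype threshold. Other names were chosen after their values were seen. Alternatives were a second clustering (added after the data were seen), another scaling, test, filter, choice of cells, depth, matching, host sex as a term, the replicate number as a block, and each tumour left out. Promoter sequences are RefSeq's (GRCm38.p6). The results of 1 melanoma-like cluster and of 1 further gene are not reported here.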

Additional observations from a re-analysis of the deposited data

Results flagged for a closer look

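Of 32 groups of tumours checked for a tumour far from the others, 3 were singled out, all of them levels of Pde10a in a melanoma-like cluster, and chance does so in about 1 of 20 groups. In the cluster led by Espn, Pde10a stood at 173 CPM in Atf4WT/WT 1 and between 98.3 and 101 CPM in the other 3 Atf4WT/WT tumours, a gap of 0.959 of the range of the group. In the interferon-response cluster led by Ifit3 it stood at 95.9 CPM in Atf4WT/WT 3 and between 139 and 146 CPM in the others (a gap of 0.865 of the range). In the cluster led by Nppb it stood at 66.5 CPM in Atf4Δ/Δ 1 and between 81.4 and 83.5 CPM in the others (0.875 of the range). In each of these clusters every Atf4Δ/Δ tumour still lay below every Atf4WT/WT tumour.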

How the results depend on the processing

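The Pde10a difference between genotypes lay between -0.84 and -0.79 on the log2 scale in 10 alternatives (-0.83 in the second clustering, added after the data were seen) and between -0.91 and -0.75 with each tumour left out. The number of genes past the threshold, 4, was not stable: it was 119 with DESeq2, 47 with no expression filter, 0 with host sex as a term, 1 with the low-UMI clusters added, 1 with the marker gate at a 15% mitochondrial limit, and 0 to 21 with a tumour left out (0 without Atf4WT/WT 1, Atf4Δ/Δ 1 or Atf4Δ/Δ 2, 1 without Atf4WT/WT 3, 2 without Atf4Δ/Δ 4 and 21 without Atf4Δ/Δ 3). The cause was not tested. With the replicate block it was 0. Pde10a was thus not past the threshold in the settings with 0 genes, nor with the low-UMI clusters added or without Atf4WT/WT 3, where the 1 gene was S100a6. The numbers did not pair the tumours: the correlations of same-numbered tumours were -0.06, -0.38, -0.21 and -0.28, and no tumour was nearest to its own number. Of the other genes past the threshold, Gm29084 lost its call in 13 of 18 alternatives, Plat in 11 and S100a6 in 6.

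Between cells with and without Pde10a, 1547 genes passed, 1372 to 1551 in 4 alternatives, 1063 with cells also matched on cluster (added after the data were seen) and 1200 to 1508 with a tumour left out, and the CREB list had 12 higher members in each of these settings except for 13 without Atf4WT/WT 1. In thinned cells the ratio of G2/M to G1 was -0.37 and that of the integrated stress response list 0.16, both then past the threshold, and that of the interferon list was 0.020. For the hypoxia list it was -0.045 with the marker gate. These last 2 changed sign and passed in neither setting. Host cells against melanoma-like cells gave -0.28 in immune-like cells alone (3 tumours, given with no test), 1.92 in host cells with under 3 melanoma markers (27 Pde10a UMIs, 6 tumours), a choice that by construction lowers the markers Pde10a is divided by, and 0.49 to 0.78 with a tumour left out, no longer past the threshold without Atf4WT/WT 4 or any Atf4Δ/Δ tumour. Among named genes that passed no test, 13 changed sign between genotypes in some alternative, with main values of at most 0.09 in size. The values of host cells rest on 182 Pde10a UMIs in all.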
